A study of Mus musculus with 16 samples.

Results

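The genes described are 9 mouse genes for methyl-CpG binding proteins and their close relatives, followed through RNA sequencing of the dorsal hippocampus. They are Mbd1, Mbd2, Mbd3, Mbd4, Mbd5 and Mbd6, which share a methyl-CpG binding domain (MBD), and the zinc finger genes Zbtb33, Zbtb38 and Zbtb4. The members were listed by name and matched by symbol to the Ensembl identifiers of the count files. All 9 were found among 55385 identifiers, and all 9 passed the low-count filter that left 16899 genes to test. Mice had received a recombinant adeno-associated virus (rAAV) in the dorsal hippocampus, which carried either GFP (Control) or Dnmt3a2, a shorter product of the DNA methyltransferase gene Dnmt3a. Every animal was trained in contextual fear conditioning 3 weeks later, and tissue was taken 1 day or 5 days after training. This gave 4 groups of 4 libraries, named Control_1d, Dnmt3a2_1d, Control_5d and Dnmt3a2_5d. The sources used here name no strain, sex, age, viral promoter or infected cell type, and leave it unstated if libraries stand for separate animals. The p-values therefore measure only the spread between these libraries, which may be partly technical.

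Methyl-CpG binding proteins are the readers of DNA methylation: a methyltransferase such as Dnmt3a adds a methyl group to cytosine, and a reader bound to the methylated CpG brings in enzymes that alter chromatin. Mbd1 and Mbd2 bind methylated CpGs and repress transcription, Mbd2 as a subunit of the nucleosome remodelling and deacetylase complex NuRD. Mbd3 sits in the same complex in place of Mbd2 and has little preference for methylated DNA. Mbd4 is a DNA glycosylase that removes the thymine left when a methylated cytosine is deaminated. Mbd5 and Mbd6 carry an MBD that does not recognise methylated DNA and associate with the Polycomb-related deubiquitinase PR-DUB, so not every member reads the mark itself. Zbtb33, known as Kaiso, and its relatives Zbtb38 and Zbtb4 bind methylated CpGs through zinc fingers. In neurons, readers are studied as the step between a changed methylation pattern and a changed transcript level.

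The promoter windows found for these genes all bear CpGs, on which a methyltransferase can act, and 3 are shown for that reason. RefSeq windows on build GRCm38.p6 were matched by symbol for 7 of the 9 genes, with 11 start sites. Each sequence is the 250 bases before the start site, 5′ to 3′ on the strand of the gene, with every CpG in capitals. The Mbd3 window lies on the minus strand at chr10:80399532-80399781, that of Zbtb33 on the plus strand at chrX:38189543-38189792 and that of Zbtb4 on the plus strand at chr11:69765662-69765911.
Mbd3: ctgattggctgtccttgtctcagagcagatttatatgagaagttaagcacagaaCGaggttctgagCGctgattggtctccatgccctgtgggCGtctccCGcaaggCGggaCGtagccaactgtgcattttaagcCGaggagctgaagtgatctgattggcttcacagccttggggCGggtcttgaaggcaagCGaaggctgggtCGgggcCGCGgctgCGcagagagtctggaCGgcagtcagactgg
Zbtb33: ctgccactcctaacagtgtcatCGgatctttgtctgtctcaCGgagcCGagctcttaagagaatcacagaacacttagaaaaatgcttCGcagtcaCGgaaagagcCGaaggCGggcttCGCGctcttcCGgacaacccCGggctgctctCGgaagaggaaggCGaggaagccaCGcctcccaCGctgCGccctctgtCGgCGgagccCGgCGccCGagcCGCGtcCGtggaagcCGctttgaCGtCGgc
Zbtb4: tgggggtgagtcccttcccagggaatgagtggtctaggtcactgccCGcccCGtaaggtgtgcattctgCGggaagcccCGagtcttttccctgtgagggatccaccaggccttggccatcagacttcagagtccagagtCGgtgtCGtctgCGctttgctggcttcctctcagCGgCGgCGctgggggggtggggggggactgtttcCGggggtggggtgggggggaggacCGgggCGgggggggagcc
These windows held 14, 27 and 13 CpGs, and the median over 32841 RefSeq windows of that length was 6. Over the 11 windows of the members the count ran from 4, at the second start site of Mbd5, to 32, at the second start site of Mbd6. The adjacent pair CGCG, a palindrome and the methylated sequence to which Kaiso is known to bind, was present in 7 of the 11 windows, which belong to 5 genes, and in 33.8% of all windows. The windows are not all separate, since those of Mbd6 overlap each other. The other Kaiso sequence, TCCTGCNA searched on both strands, was in 0 of the 11 and in 4.0% of all windows. Methylation at these sites was not analysed here, so the sequences are context and not a result.

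Library totals ran from 28642366 to 29959491 estimated reads. Levels are given as CPM, the usual depth-normalised read count, here with TMM-scaled library totals, and a change is called where edgeR's quasi-likelihood test has a Benjamini-Hochberg adjusted p under 0.05 over all 16899 genes. Dnmt3a, the delivered gene, was at 32.7 to 37.7 CPM in the 8 Control libraries and at 623 to 1249 CPM in the 8 Dnmt3a2 libraries (log2 fold change 4.79 at 1 day and 5.05 at 5 days, SE 0.17 for both, edgeR adjusted p = 2.19e-09 and 1.27e-09). Summed over their 6 markers, neurons were at 5816 to 6656 CPM and hippocampal subfields at 945 to 1127 CPM in every library, with none of these 12 genes at 0. At 5 days the summed hippocampal markers were at 978 to 1007 CPM in Dnmt3a2_5d and 1038 to 1101 CPM in Control_5d. The summed neocortex markers were at 170 to 183 CPM and 155 to 168 CPM, so neither sum overlapped between those groups. Single genes went both ways, with 2 of 6 hippocampal log2 fold changes above 0 (median -0.116) and 3 of 6 neocortex ones (median 0.008). From Control_5d to Dnmt3a2_5d mean CPM of Wfs1 went from 299 to 233 and of Prox1 from 164 to 141. Those of Neurod6 (345 and 350) and Bok (31.4 and 34.6) did not fall. Tbr1 went from 81.4 to 92.3 CPM and Lamp5 from 30.7 to 36.3, while Cux2 (22.6 and 21.8) and Rorb (12.3 and 12) did not rise. Summed choroid plexus markers were at 867 CPM in Dnmt3a2_1d replicate 1 and 1382 CPM in Dnmt3a2_5d replicate 1, against 42.4 to 207 CPM in the other 14. Summed interferon response genes were at 74.4 CPM in Control_1d replicate 1, 84.4 CPM in Dnmt3a2_1d replicate 1 and 120 CPM in Dnmt3a2_5d replicate 1, against 35.1 to 51.5 CPM in the other 13. No member was called with or without these libraries.

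All 9 genes were expressed in every library, over a wide span of levels. Per kilobase of merged exon sequence, a way to allow for gene length, Mbd3 was highest with 49.2 ± 4.43 CPM per kb (mean ± SD, 16 libraries). Zbtb4 followed with 24.8 ± 1.01 CPM per kb, Mbd2 with 11.6 ± 0.703 and Mbd6 with 8.15 ± 0.855. Among these 4, and between Mbd6 and Mbd1, neighbours in the order did not overlap in any library. Mbd1 (4.49 ± 0.227 CPM per kb), Zbtb33 (4.04 ± 0.438), Zbtb38 (3.76 ± 0.346) and Mbd5 (3.14 ± 0.332) formed a run in which each gene overlapped its neighbour within the run. Mbd4, the glycosylase, was lowest with 1.16 ± 0.116 CPM per kb and stood below all the others in all 16 libraries. Division by the longest transcript raised Mbd1 to 7.67, Mbd5 to 7.22 and Zbtb38 to 5.96 CPM per kb and put Zbtb33 eighth, so the order within that run rests on the length chosen. So does its separation from Mbd6, which on the longest transcript ran from 7.12 to 10.1 CPM per kb against 7.23 to 8.68 for Mbd1 and 5.93 to 9.01 for Mbd5. The depth behind these levels was 147 to 235 estimated reads per library for Mbd4 and 5498 to 6510 for Zbtb4.

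**Figure D1:**
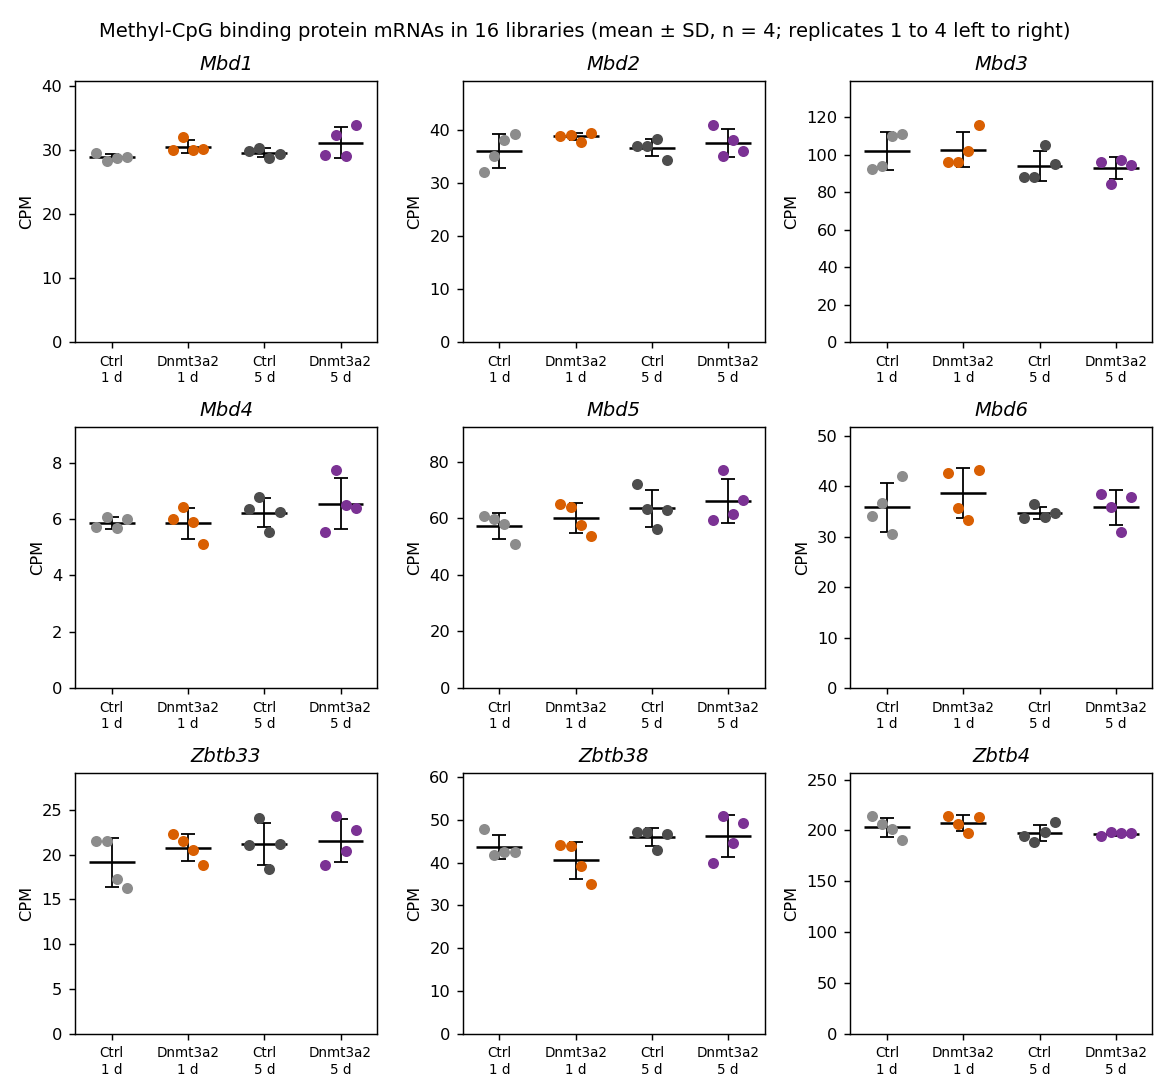
CPM of each gene (vertical axes, from 0) in the 4 groups; points are libraries, replicates 1 to 4 from left to right, the horizontal bar is the mean and the error bar the SD (n = 4). Dnmt3a2 and Control libraries of a day share a range in every panel except that of Mbd1 at 1 day, where Control_1d ends at 29.6 CPM and Dnmt3a2_1d begins at 30 CPM.

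The first question was whether these genes changed when the writer was raised. At 1 day after conditioning none of the 9 genes passed the test, while Dnmt3a itself was many times higher. Their fold changes lay between 0.93 (Zbtb38) and 1.083 (Zbtb33), and the 95% intervals of all 9 together spanned 0.828 to 1.255-fold. At 5 days the fold changes lay between 0.989 and 1.052 and the intervals spanned 0.878 to 1.233-fold. In edgeR, 0 of the 9 were called at 1 day and 0 at 5 days, where 0.0888% and 0.32% of all genes were called. At an unadjusted p under 0.05 the count was also 0 on both days, where 7.17% and 8.01% of all genes lay. DESeq2, limma-voom and limma on the deposited log2 values each called 0 as well. The median log2 fold change of the 9 was 0.07 at 1 day and 0.03 at 5 days, against 0.003 and 0.008 over all genes, and 7 of 9 were above 0 on each day, where 50.9% and 52.8% of all genes were. The tissue holds many cell types, so fewer cells of a type and less RNA per cell cannot be told apart.

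**Figure D2:**
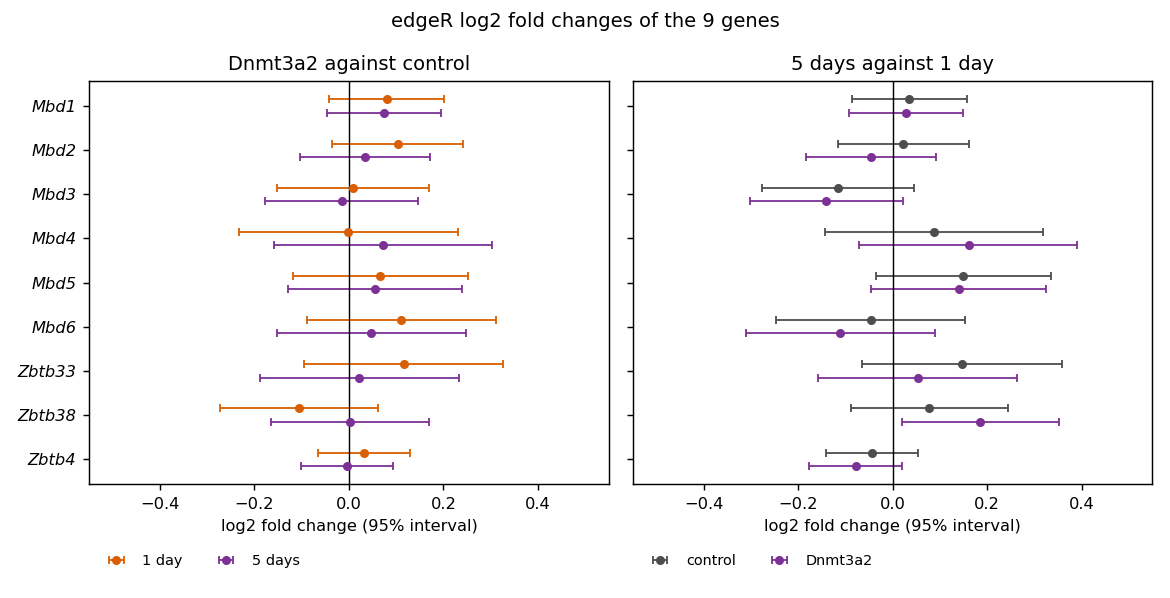
edgeR log2 fold changes (points) with 95% intervals (bars) of the 9 genes, Dnmt3a2 against Control on the left and 5 days against 1 day on the right. All intervals on the left include 0; on the right that of Zbtb38 in Dnmt3a2 libraries does not (log2 0.19), and its adjusted p is 0.418.

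Mbd1 (ENSMUSG00000024561, chromosome 18, 74267605 to 74282732, plus strand) was the member whose groups stood apart most cleanly at 1 day. Control_1d libraries held 29.6, 28.3, 28.7 and 29 CPM and Dnmt3a2_1d libraries 30, 32, 30 and 30.2 CPM. Every Dnmt3a2 library was thus above every Control library, by a small margin, a separation found for 1.67% of all genes in that direction and 3.43% in either. The fold change was 1.057 (95% interval 0.971 to 1.15, edgeR adjusted p = 0.851). At 5 days Control_5d libraries held 29.9, 30.4, 28.7 and 29.4 CPM and Dnmt3a2_5d libraries 29.3, 32.3, 29.1 and 34.0 CPM. Only replicates 2 and 4 of Dnmt3a2_5d were above the Control range (no member's groups stood fully apart at 5 days, where 6.29% of all genes did), and the fold change was 1.052 (0.968 to 1.145, edgeR adjusted p = 0.848). Averaged over both days Mbd1 had the smallest p of the 9 (log2 0.08, SE 0.04, unadjusted p = 0.0767, edgeR adjusted p = 0.479), in a comparison that called 0 of the 9 and 1.43% of all genes.

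Mbd2 (ENSMUSG00000024513, chromosome 18, 70568189 to 70626131, plus strand), the methyl-binding subunit of NuRD, was at 32.1, 35.0, 38.1 and 39.2 CPM in Control_1d and at 38.8, 39.0, 37.8 and 39.4 CPM in Dnmt3a2_1d. The Dnmt3a2 libraries clustered at the upper end of the wider Control range (fold change 1.074, 0.976 to 1.181, edgeR adjusted p = 0.814). At 5 days it was at 37.0, 37.0, 38.3 and 34.4 CPM in Control_5d and 41.0, 35.1, 38.0 and 36.1 CPM in Dnmt3a2_5d, with overlapping ranges and a fold change of 1.024 (0.931 to 1.126). Without Dnmt3a2_5d replicate 1, which held its highest value and is 1 of the choroid-rich libraries, the log2 fold change at 5 days went from 0.03 to -0.011.

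Mbd3 (ENSMUSG00000035478, chromosome 10, 80392539 to 80399550, minus strand), which takes the place of Mbd2 in NuRD, differed more between libraries of a group than between groups. It was at 92.2, 94.0, 110 and 111 CPM in Control_1d, 96.2, 96.0, 102 and 116 CPM in Dnmt3a2_1d, 88.3, 87.8, 105 and 95.1 CPM in Control_5d and 96.3, 84.5, 97.1 and 94.2 CPM in Dnmt3a2_5d. Means were 102 ± 10.1 and 102 ± 9.36 CPM at 1 day and 94.0 ± 7.97 and 93.0 ± 5.83 CPM at 5 days, so virus groups of the same day lay together. Its log2 fold change was 0.009 at 1 day and -0.015 at 5 days (SE 0.08 for both), and its sign turned on which library was left out.

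Mbd4 (ENSMUSG00000030322, chromosome 6, 115840697 to 115853371, minus strand), the thymine glycosylase, was the least abundant member and the one with the widest intervals. It was at 5.70, 6.07, 5.67 and 6 CPM in Control_1d and at 6.01, 6.42, 5.89 and 5.10 CPM in Dnmt3a2_1d, and at 6.35, 6.77, 5.53 and 6.24 CPM in Control_5d and 5.55, 7.73, 6.51 and 6.39 CPM in Dnmt3a2_5d. Dnmt3a2_5d replicate 2 held the highest value of all 16 libraries, and without it the log2 fold change at 5 days went from 0.07 (SE 0.11) to -0.018. At 1 day the log2 fold change was -0.001 (SE 0.11).

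Mbd5 and Mbd6, the partners of PR-DUB, did not pass the test on either day. Mbd5 (ENSMUSG00000036792, chromosome 2, 48949508 to 49325405, plus strand), a gene whose loss of 1 copy causes a neurodevelopmental disorder in people, was at 60.8, 59.6, 58.0 and 50.7 CPM in Control_1d and 64.9, 63.8, 57.5 and 53.6 CPM in Dnmt3a2_1d. At 5 days it was at 72.1, 63.2, 56.2 and 62.8 CPM in Control_5d and 59.4, 76.9, 61.5 and 66.4 CPM in Dnmt3a2_5d. The ranges overlapped on both days, with fold changes of 1.047 and 1.039 (edgeR adjusted p = 0.928 and 0.949). Mbd6 (ENSMUSG00000025409, chromosome 10, 127281956 to 127289018, minus strand) was at 34.1, 36.8, 30.5 and 42 CPM in Control_1d, 42.6, 35.7, 33.4 and 43.2 CPM in Dnmt3a2_1d, 33.7, 36.5, 34.0 and 34.8 CPM in Control_5d and 38.5, 35.9, 31.0 and 38.0 CPM in Dnmt3a2_5d. Its groups overlapped on both days, with 1 day means of 35.9 ± 4.82 and 38.7 ± 4.93 CPM, and its fold change was 1.08 (edgeR adjusted p = 0.872).

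The zinc finger readers gave the extremes of the fold changes at 1 day, still within their spread. Zbtb33 (ENSMUSG00000048047, chromosome X, 38189793 to 38197046, plus strand), Kaiso, was at 21.5, 21.5, 17.3 and 16.3 CPM in Control_1d and 22.3, 21.5, 20.5 and 18.8 CPM in Dnmt3a2_1d. The lower mean of Control_1d came from its replicates 3 and 4, and the fold change of 1.083 had an interval of 0.935 to 1.255 (edgeR adjusted p = 0.877). At 5 days Zbtb33 was at 21.1, 24.1, 18.4 and 21.2 CPM in Control_5d and 18.9, 24.3, 20.4 and 22.7 CPM in Dnmt3a2_5d, nearly the same range (fold change 1.016, 0.878 to 1.175). Zbtb33 shares 474 exonic bases with Tmem255a on the opposite strand, and no source names how strand was handled in counting, so reads there cannot be assigned with certainty. Tmem255a itself was at 16.4 to 21.2 CPM and was not called (log2 0.06, SE 0.07, edgeR adjusted p = 0.907 at 1 day). Mbd5 shares 136 exonic bases with Orc4 in the same way (Orc4 18.6 to 25 CPM, edgeR adjusted p = 0.905 at 1 day).

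Zbtb38 (ENSMUSG00000040433, chromosome 9, 96682770 to 96752831, minus strand), which binds single methylated CpGs, was the 1 member well below 0 at 1 day. It was at 47.8, 41.7, 42.6 and 42.5 CPM in Control_1d and 44.1, 43.8, 39.2 and 35.1 CPM in Dnmt3a2_1d, with replicates 3 and 4 of Dnmt3a2_1d below the Control range and replicates 1 and 2 within it. The fold change was 0.93 (0.828 to 1.044, edgeR adjusted p = 0.857). At 5 days it was at 47.3, 47.3, 43.0 and 46.7 CPM in Control_5d and 40, 50.9, 44.6 and 49.2 CPM in Dnmt3a2_5d, and the fold change was 1.002 (0.893 to 1.125). Zbtb4 (ENSMUSG00000018750, chromosome 11, 69765912 to 69784023, plus strand), a repressor of the same kind, had the smallest SD of log2 CPM within groups. It was at 214, 206, 201 and 191 CPM in Control_1d, 214, 206, 197 and 213 CPM in Dnmt3a2_1d, 194, 189, 198 and 208 CPM in Control_5d and 194, 198, 197 and 197 CPM in Dnmt3a2_5d. Its SD within groups was 0.05 on the log2 scale. Of 500 genes at a like level 15.4% had a smaller SD, and for Mbd1 that share was 4.6%. The Zbtb4 fold changes of 1.022 at 1 day and 0.998 at 5 days had the narrowest intervals of the 9 on each day (0.956 to 1.094 and 0.932 to 1.067).

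The study also allows the 2 days to be compared within each virus group. None of the 9 genes was called between 5 days and 1 day in Control or in Dnmt3a2 libraries by edgeR, DESeq2, limma-voom or limma on the deposited values, where edgeR called 0% of all genes in both. At an unadjusted p under 0.05 there were 0 of 9 in Control (3.54% of all genes) and 1 of 9 in Dnmt3a2 (10.8% of all genes). That gene was Zbtb38, with means of 40.6 ± 4.27 CPM at 1 day and 46.2 ± 4.90 CPM at 5 days (log2 0.19, SE 0.08, edgeR adjusted p = 0.418). Its libraries overlapped, since Dnmt3a2_5d replicate 1 held 40 CPM and Dnmt3a2_1d replicate 1 held 44.1 CPM. In Control libraries Zbtb38 differed by log2 0.08 (SE 0.08). The contrast of the 5 day with the 1 day effect of Dnmt3a2 called 0 of the 9 genes and 0% of all genes in edgeR, with 0 of the 9 and 2.13% of all genes at an unadjusted p under 0.05, and its estimate for Zbtb38 was 0.11 (SE 0.11). Mbd3 and Mbd5 had values on opposite sides of 0 in both virus groups: -0.115 and -0.14 for Mbd3 (SE 0.08 for both) and 0.15 and 0.14 for Mbd5 (SE 0.09 for both), none of them called. Summed oligodendrocyte markers were at 3879 to 5726 CPM in Dnmt3a2_1d and 3146 to 3814 CPM in Dnmt3a2_5d, without overlap. In Control_1d and Control_5d they were at 3433 to 4998 and 2980 to 4157 CPM. From 1 day to 5 days in Dnmt3a2, 0 of 6 oligodendrocyte, 0 of 6 endothelial and 5 of 6 microglia markers had values above 0. In Control these counts were 1, 0 and 1. The part of cell mix in the day values of the 9 genes was not tested.

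Mbd3 and Mbd5 also opposed each other from library to library, within groups as well as between them. Over 16 libraries the Pearson correlation of their log2 CPM was -0.861, and it was -0.839 after group means were removed. Mbd3 stood in the same way against Zbtb33 (-0.855), Zbtb38 (-0.773) and Mbd4 (-0.76). Those 4 genes went together, with correlations of 0.613 to 0.794 among their 6 pairs. In Control_1d replicate 4, for example, Mbd3 was 0.19 above its mean on the log2 scale and Zbtb33 0.33 below, and in Dnmt3a2_5d replicate 2 Mbd3 was 0.21 below and Mbd5 0.33 above. Of the 36 pairs of members, 10 were above 0.5 and 6 below -0.5. These correlations are descriptions without a test, and all points of a library share its depth, cell mix and base composition bias.

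**Figure D3:**
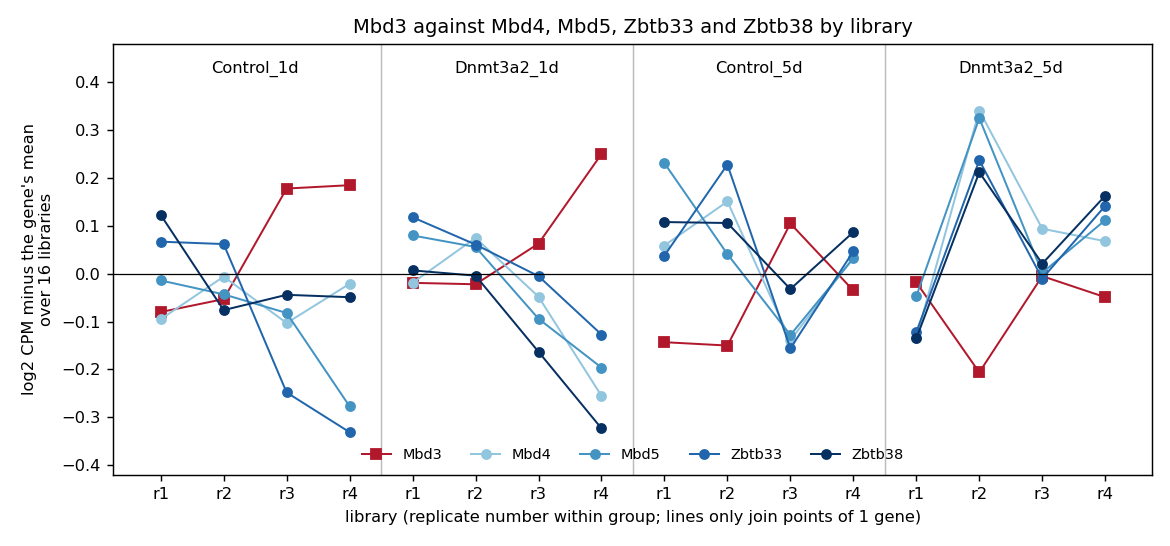
Log2 CPM of 5 genes relative to their own means (vertical axis) in the 16 libraries, ordered by group and replicate; lines only join points of a gene within a group. Mbd3 (squares) lies on the other side of 0 from most of Mbd4, Mbd5, Zbtb33 and Zbtb38 (circles) in libraries such as Dnmt3a2_1d replicate 4 and Dnmt3a2_5d replicate 2.

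The genes on the 2 sides differ in transcript make-up. The longest transcript of Mbd3 has 1662 bases with 62.9% GC, a GC content above that of 98.6% of tested genes. Zbtb33 has 39.2% GC over 5122 bases, Mbd4 43.8% over 3614, Zbtb38 45.5% over 7406 and Mbd5 45.8% over 8543, and the median of tested genes was 49.7%. Libraries differed in how levels leaned with GC content, from -0.055 log2 units per 10 percentage points in Control_5d replicate 2 to 0.062 in Control_5d replicate 3. They also differed in the lean with transcript length, from -0.054 log2 units per doubling in Control_1d replicate 3 to 0.079 in Dnmt3a2_5d replicate 2. The log2 CPM of Mbd3 had a correlation of 0.514 with the GC lean, and those of Mbd4, Mbd5, Zbtb33 and Zbtb38 had -0.669, -0.654, -0.59 and -0.495. After offsets that remove each library's trend with GC content and transcript length, an alternative chosen after seeing the data, Mbd3 against Mbd5 went from -0.861 to -0.506, Mbd3 against Zbtb33 from -0.855 to -0.626 and Mbd3 against Zbtb38 from -0.773 to -0.4. The spread of Mbd3 within groups went from 0.12 to 0.08 and that of Mbd5 from 0.14 to 0.09 log2 units. Over the 36 pairs of members, those above 0.5 went from 10 to 6 and those below -0.5 from 6 to 3. Some pairs were farther from 0 after the offsets, among them Mbd3 against Zbtb4 (0.16 before, 0.605 after) and Mbd4 against Zbtb4 (-0.366 before, -0.621 after). Mbd6, with 63.1% GC, had a correlation of 0.451 with the GC lean but 0.203 with Mbd3, and Mbd1, with 50.2% GC, had -0.514 with the GC lean. The part of GC content and length in the opposing pattern was not tested. With these offsets none of the 9 was called in any comparison.

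**Figure D4:**
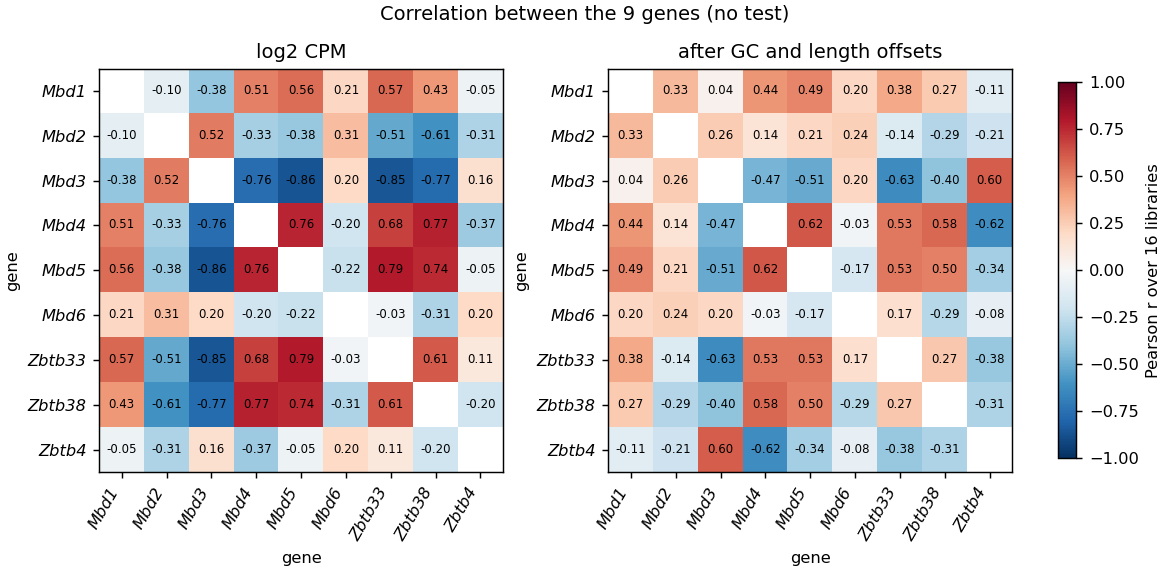
Pearson correlation over 16 libraries between each pair of the 9 genes (rows and columns; colour and number give r) for log2 CPM on the left and after offsets for GC content and length on the right. The block of Mbd4, Mbd5, Zbtb33 and Zbtb38 against Mbd3 is paler on the right, where r ran from -0.626 to 0.619 against -0.861 to 0.794 on the left.

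Among 14234 other genes that averaged 1 CPM or more, the closest in pattern to Mbd5 over the 16 libraries were Ash1l, a histone methyltransferase gene (Pearson r 0.948), and the deubiquitinase gene Usp15 (0.947). Abhd8 was among the 2 closest to Mbd3 (0.938). Closest to Mbd4 were Mycbp2 (0.943) and the spectrin gene Sptbn1 (0.908), to Zbtb33 Lmbrd2 (0.931) and the importin gene Ipo7 (0.91), and the kinesin gene Kif21a was among the 2 closest to Zbtb38 (0.885). Those of Mbd2 were Mtrr (0.881) and Snrnp40 (0.815), those of Mbd6 Khdc4 (0.87) and Anks3 (0.866), those of Zbtb4 the noncoding RNA Tug1 (0.838) and Pcyt1a (0.827), and those of Mbd1 Rapgef5 (0.823) and Ppp2r3a (0.823). No other member was among the closest 2 genes of any member. The highest of so many correlations is large by selection.

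The complexes through which the 9 proteins act, and related genes, were followed as 7 lists with 56 genes in all. None of the 56 was called by edgeR at 1 day or at 5 days, where 0.0888% and 0.32% of all genes were called. The 13 NuRD genes that work with Mbd2 and Mbd3 had median log2 fold changes of 0.01 at 1 day and 0.007 at 5 days, with 8 and 7 of them above 0. The smallest p values were those of Gatad2b at 1 day (log2 0.13, SE 0.05, edgeR adjusted p = 0.612) and of the deacetylase gene Hdac1 at 5 days. Hdac1 was at 26.5, 24.1, 25.7 and 26.4 CPM in Control_5d and at 23.9, 20.8, 23.2 and 23.4 CPM in Dnmt3a2_5d. All 4 Dnmt3a2_5d libraries were below the Control_5d range, as they were for 3.29% of all genes (log2 -0.17, SE 0.06, edgeR adjusted p = 0.421).

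Atf7ip (ENSMUSG00000030213), the cofactor that links Mbd1 to the H3K9 methyltransferase Setdb1, was the 1 gene of the 56 that was called in any comparison. It was at 84.7, 76.1, 72.2 and 73.1 CPM in Control_1d and 74.8, 71.2, 66.5 and 62.3 CPM in Dnmt3a2_1d. At 5 days it was at 84.3, 82.8, 81.0 and 81.4 CPM in Control_5d and 69.3, 77.9, 68.6 and 69.4 CPM in Dnmt3a2_5d. The 1 day groups overlapped, and at 5 days every Dnmt3a2 library was below every Control library, as for 3.29% of all genes. It fell by 0.18 on the log2 scale averaged over both days (SE 0.04, edgeR adjusted p = 0.0439), where 1.43% of all genes were called. For the single days the values were -0.155 at 1 day (edgeR adjusted p = 0.573) and -0.209 at 5 days (edgeR adjusted p = 0.247). The call ended without any of 12 single libraries, namely Control_1d replicates 1 and 2, Dnmt3a2_1d replicates 2, 3 and 4, all 4 of Control_5d and Dnmt3a2_5d replicates 1, 3 and 4, with edgeR adjusted p up to 0.0947. It also ended without the 3 interferon-rich libraries (edgeR adjusted p = 0.053). Mbd1 had a log2 fold change of 0.08 in the same comparison, and Setdb1 was not called. Of the astrocyte markers, 1 of 6, Slc1a3, the glutamate transporter gene, rose in that comparison (log2 0.19, SE 0.05, edgeR adjusted p = 0.0426) and the other 5 did not pass the test. Of those, Slc1a2 (0.15) and Gja1 (0.07) had values above 0 and Gfap (-0.203), Aldh1l1 (-0.117) and Aqp4 (-0.053) below 0, with a median of 0.008 over the 6. The 6 summed ran from 2935 to 3308 CPM in Control_1d, from 3211 to 3549 CPM in Dnmt3a2_1d, from 2875 to 3267 CPM in Control_5d and from 2884 to 3271 CPM in Dnmt3a2_5d. None of the 6 was at 0. The summed hippocampal and neocortex markers also stood apart between the 5 day groups, though single genes of each list went both ways, as given above. The part of any of these cells or regions in the Atf7ip and Hdac1 values was not tested.

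In the other lists no gene was called in any of the 6 comparisons by edgeR. Of all genes 0.0888% were called at 1 day, 0.32% at 5 days, 1.43% averaged over both days and 0% in the remaining comparisons. Of 12 glycosylase and base excision repair genes around Mbd4, 7 were above 0 at 1 day and 4 at 5 days, and the smallest p values were those of the ligase gene Lig3 at 1 day (log2 0.11, edgeR adjusted p = 0.805) and of Parp1 at 5 days (log2 0.13, SE 0.05, edgeR adjusted p = 0.427). Of 9 PR-DUB genes that work with Mbd5 and Mbd6, 5 and 7 were above 0, led by Foxk1 at 1 day (0.145, SE 0.06, edgeR adjusted p = 0.54) and the O-GlcNAc transferase gene Ogt at 5 days (0.14, SE 0.06, edgeR adjusted p = 0.541). Of 10 NCoR and Sin3 genes, corepressors of the zinc finger readers, 9 and 7 were above 0, with Tbl1xr1 at 0.14 (SE 0.06, edgeR adjusted p = 0.63) at 1 day and Sin3b at 0.09 (SE 0.05, edgeR adjusted p = 0.732) at 5 days. The other genes with an MBD-like domain (Setdb1, Setdb2, Baz2a and Baz2b) were led by Baz2b at 1 day (0.13, SE 0.105, edgeR adjusted p = 0.866) and Baz2a at 5 days (0.06, SE 0.06, edgeR adjusted p = 0.917). Among Uhrf1, Uhrf2, Zfp57 and Ctcf, a list of other genes related to DNA methylation, Uhrf2 had the smallest p on both days. Its values were 0.07 at 1 day and -0.097 at 5 days (SE 0.06 for both, edgeR adjusted p = 0.867 and 0.778). Uhrf1, the partner of the maintenance methyltransferase in dividing cells, was near the limit of measurement at 0.243 to 1.13 CPM.

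**Figure D5:**
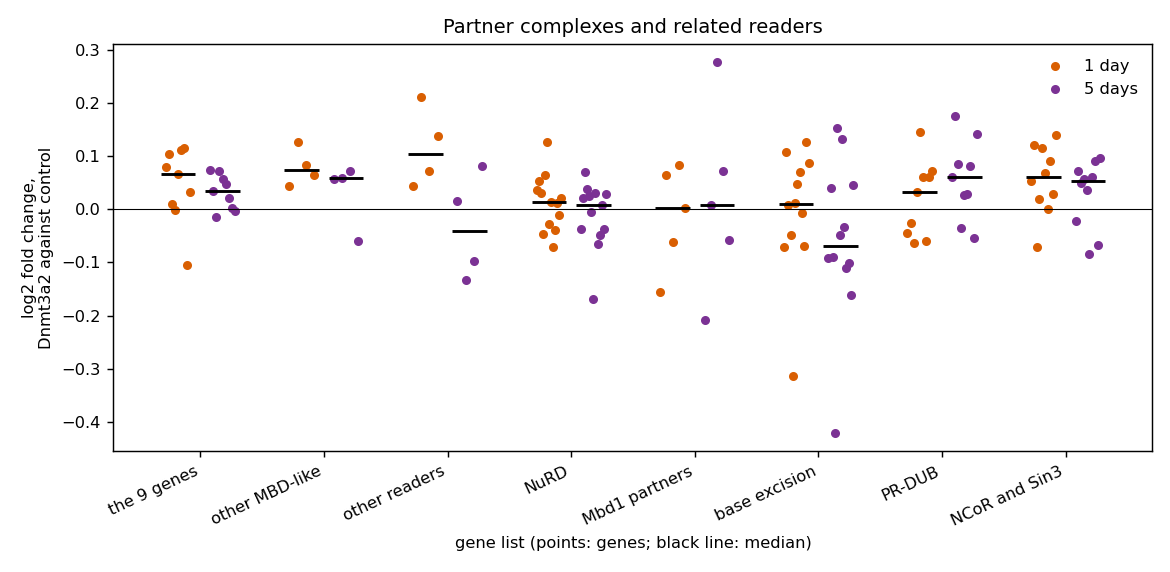
edgeR log2 fold changes, Dnmt3a2 against Control (vertical axis), of the 9 genes and of 7 lists of partners and related genes (horizontal axis). Each point is a gene, 1 day in orange and 5 days in purple, and black lines are medians. The 2 lowest points belong to base excision genes of about 1 CPM, Nthl1 at -0.313 (1 day) and Mutyh at -0.42 (5 days), named after their values were seen and not called.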

How the data were processed

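RNA was measured in 16 dorsal hippocampus libraries, prepared for BGISEQ-500 sequencing per the labels' protocols. The deposited expected counts are estimated reads per Ensembl gene, not normalised (26.2% of values not whole). A second deposited file per library holds log2 CPM of 16907 genes, which edgeR (filterByExpr, TMM) returned from the counts to within 5.329e-15. Tools in the submitters' processing notes are kallisto 0.4.6, Trim Galore 0.6.4 and edgeR 3.17, with build GRCm38.p6. The sources used here state no annotation release, strand setting or way of summing to genes. GENCODE M21 named 55144 of 55385 identifiers.

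Rounded counts passed filterByExpr for 16899 genes and were scaled by TMM, and all libraries entered 1 robust quasi-likelihood fit in edgeR 4.0.16 (R 4.3.3) with a term per group and no block. SEs were taken from the test statistic. Alternatives used DESeq2 1.42.0, limma 3.58.1, other scalings, filters and thresholds, the replicate number as a block, fewer libraries, and GC and length offsets. Library pairs were checked for duplicates (lowest chi-square per gene 4.21 over 120 pairs). The fit was tested on simulated data for the 1 day comparison, with 50 genes changed at each size. It recovered 20% of 1.2-fold, 62% of 1.5-fold, 86% of 2-fold and 98% of 3-fold changes, so small changes were mostly missed. The members, lists and tests were chosen with earlier results of these data known. Named were all members, Dnmt3a, list genes called or with the smallest p of a list at 1 or 5 days, and the 2 genes closest to each member, of which 2 genes are not reported here. Lists of neurons, hippocampus, neocortex, astrocytes, oligodendrocytes, microglia, endothelium, choroid plexus and interferon response served as markers.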

Additional observations from a re-analysis of the deposited data

Results flagged for a closer look

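Of 40 groups of 4 libraries (the 9 genes and Dnmt3a in each group), 3 held a library set apart from the other 3 by more than 0.829 of the group's range, and chance gives about 1 in 20. Mbd1 in Dnmt3a2_1d replicate 2 was at 32.0 CPM with the nearest other library at 30.2 CPM. Zbtb38 in Control_1d replicate 1 was at 47.8 CPM with the nearest at 42.6 CPM, and Zbtb38 in Control_5d replicate 3 was at 43.0 CPM with the nearest at 46.7 CPM. Control_1d replicate 1 is among the interferon-rich libraries (74.4 CPM summed). The part of that signal in the Zbtb38 value was not tested.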

How the results depend on the processing

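No member was called under any of the alternatives, in any comparison: over 45 log2 fold changes of members, 1296 values from up to 29 alternatives each lay between -0.186 and 0.292, with adjusted p of at least 0.188. Signs turned in 50 of them, in 16 of the 45, for values near 0; the cause was not tested. At 1 day these were Mbd3 without the 3 interferon-rich libraries (-0.006) and Mbd4 without a low-count filter (0), with a mean of at least 1 CPM (0.001) and with only the groups compared (0.002). At 5 days they were Mbd2 (-0.011) and Zbtb4 (0.002) without the 2 choroid-rich or the 3 interferon-rich libraries, Zbtb38 with upper-quartile factors, limma-voom or limma-trend (-0.002), and, with GC and length offsets, Mbd3 (0.001), Zbtb33 (-0.014) and Zbtb38 (-0.031). Averaged over days they were Mbd3 without the 2 choroid-rich libraries (0.003) and, with offsets, Mbd3 (0.031) and Zbtb4 (-0.013). Between days in Control they were Mbd2 without the 3 interferon-rich libraries (-0.029) and Mbd6 with offsets (0.025). With single libraries left out, the log2 fold changes that turned ran at 1 day from -0.057 to 0.052 for Mbd3 and -0.048 to 0.058 for Mbd4. At 5 days they ran from -0.011 to 0.065 for Mbd2, -0.047 to 0.041 for Mbd3, -0.018 to 0.144 for Mbd4, -0.026 to 0.122 for Mbd5, -0.039 to 0.089 for Zbtb33, -0.047 to 0.066 for Zbtb38 and -0.024 to 0.02 for Zbtb4. Averaged over days they ran from -0.038 to 0.025 for Mbd3, -0.009 to 0.071 for Mbd4 and 0 to 0.028 for Zbtb4. Between days they ran from -0.029 to 0.065 for Mbd2 and -0.115 to 0.038 for Mbd6 in Control, and from -0.021 to 0.061 for Mbd1 and -0.007 to 0.112 for Zbtb33 in Dnmt3a2.

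With the replicate number as a block, 0 of 9 members were called in each comparison, and the counts over all genes were 17 against 15 at 1 day, 65 against 54 at 5 days and 295 against 241 averaged over days. The labels do not say that the number pairs libraries: of 24 pairs of equal number 8 had a correlation above 0.1, and 6 of 16 libraries correlated best with their own number. Counts over all genes moved most with DESeq2 (59 at 1 day, 143 at 5 days, 512 averaged, 44 between days in Dnmt3a2 and 1 for the difference of the effects, against 15, 54, 241, 0 and 0). They were 34 without a low-count filter at 1 day, 6 without it between days in Dnmt3a2, and 98 with offsets at 5 days. With only the groups compared they were 7 at 1 day and 94 at 5 days, and at an adjusted p under 0.10 they were 23, 104 and 442 at 1 day, at 5 days and averaged. Without the 2 choroid-rich or the 3 interferon-rich libraries they were 90 and 105 at 5 days. With single libraries left out they ran from 6 to 22, 22 to 82 and 121 to 272 at 1 day, at 5 days and averaged. The log2 fold change of Atf7ip at 5 days passed the test with offsets (log2 -0.24, edgeR adjusted p = 0.00643).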
